A study of Homo sapiens with 4 samples.

Results

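The antigen presentation genes followed here were HLA-B, HLA-C, HLA-E, B2M, TAP1, TAP2, TAPBP, NLRC5 and CIITA. They were chosen by name, as 9 of the 20037 protein-coding genes annotated on the main chromosomes, and every ATAC-seq summit inside a gene or within 5 kb of either end was assigned to it. ATAC-seq marks open chromatin by letting a transposase cut and tag DNA wherever it can reach it. It was performed in LNCaP, an androgen-sensitive prostate cancer cell line labelled wild type, and in LNCaP-resistance, a derivative treated with the antiandrogen enzalutamide. There were 2 libraries of each. Per the methods of the study, resistant cells were made from LNCaP by growth in serum stripped of hormones followed by stepwise increases of enzalutamide, whereas the labels give the same serum-containing medium for both cell types, so hormone deprivation and drug cannot be told apart. The labels do not say which resistant subline was used, and the labels do not say whether the 2 libraries of a cell type came from separate cultures. The methods of the study speak of independent replicates for all experiments, in a number that is not that of these libraries. The labels put replicate 1 of both cell types in one batch and replicate 2 in another. An exact permutation test over 2 and 2 libraries cannot go below a two-sided p of 0.333, so no p-value is given, and a gene or region is called lower or higher only where both resistant libraries lay on the same side of both LNCaP libraries.

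Class I molecules display peptides from inside the cell to cytotoxic T cells. HLA-B and HLA-C encode classical heavy chains, HLA-E a less variable heavy chain read mainly by natural killer cells, and B2M the light chain that all of them share. TAP1 and TAP2 form the pump that carries peptides into the endoplasmic reticulum, and TAPBP encodes tapasin, which holds class I molecules at that pump. NLRC5 and CIITA encode the transactivators of class I and class II genes, which act without binding DNA themselves, through proteins bound upstream of the genes. Interferon-gamma induces most of these genes, and many tumours lose part of the pathway.

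The promoters of HLA-B, HLA-C, B2M, TAP1 and TAPBP are printed because each held a called summit in at least 1 library. HLA-B and HLA-C are also near copies, of which HLA-B alone lacked a start summit in LNCaP replicate 1. Each promoter runs 5′ to 3′ on the gene's strand, with 250 bases before and 50 bases from the annotated start, and was taken from RefSeq on GRCh38.p14. The windows lie at chr6:31357130-31357429 (minus strand) for HLA-B, chr6:31272043-31272342 (minus strand) for HLA-C, chr15:44711267-44711566 (plus strand) for B2M, chr6:32853655-32853954 (minus strand) for TAP1 and chr6:33314029-33314328 (minus strand) for TAPBP. Capitals mark, on either strand, the CCAAT box, the interferon-response core GAAANNGAAA, the core TGACG of the cyclic AMP response element and the NF-kB consensus, and neighbouring matches can overlap.
HLA-B: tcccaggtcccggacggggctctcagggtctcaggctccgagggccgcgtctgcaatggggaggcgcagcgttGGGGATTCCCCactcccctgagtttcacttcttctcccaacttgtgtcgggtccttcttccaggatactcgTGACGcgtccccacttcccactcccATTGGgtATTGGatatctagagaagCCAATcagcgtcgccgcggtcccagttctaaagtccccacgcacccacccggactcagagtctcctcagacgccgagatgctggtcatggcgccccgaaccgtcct
HLA-C: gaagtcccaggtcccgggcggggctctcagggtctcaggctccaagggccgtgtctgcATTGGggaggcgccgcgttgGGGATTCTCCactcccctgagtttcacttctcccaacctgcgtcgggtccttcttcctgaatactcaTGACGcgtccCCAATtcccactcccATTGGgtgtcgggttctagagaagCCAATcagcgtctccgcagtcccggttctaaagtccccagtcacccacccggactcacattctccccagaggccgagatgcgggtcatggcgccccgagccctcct
B2M: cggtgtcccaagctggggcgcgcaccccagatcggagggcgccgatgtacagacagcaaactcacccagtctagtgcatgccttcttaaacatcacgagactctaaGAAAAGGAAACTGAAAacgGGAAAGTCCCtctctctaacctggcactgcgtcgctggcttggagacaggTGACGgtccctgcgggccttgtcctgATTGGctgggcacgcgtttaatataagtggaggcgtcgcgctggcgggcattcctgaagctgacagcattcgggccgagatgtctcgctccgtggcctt
TAP1: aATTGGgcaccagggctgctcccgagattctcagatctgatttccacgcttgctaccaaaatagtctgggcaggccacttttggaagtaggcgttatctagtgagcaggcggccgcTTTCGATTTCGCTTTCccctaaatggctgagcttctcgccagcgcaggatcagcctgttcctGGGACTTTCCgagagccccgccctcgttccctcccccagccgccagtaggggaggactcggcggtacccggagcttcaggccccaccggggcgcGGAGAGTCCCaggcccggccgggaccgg
TAPBP: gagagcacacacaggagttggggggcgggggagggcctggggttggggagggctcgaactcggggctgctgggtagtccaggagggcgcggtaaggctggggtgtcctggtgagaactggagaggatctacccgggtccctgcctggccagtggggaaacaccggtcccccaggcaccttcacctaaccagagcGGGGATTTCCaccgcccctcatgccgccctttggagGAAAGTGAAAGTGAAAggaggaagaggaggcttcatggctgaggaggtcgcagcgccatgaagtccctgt

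Both HLA-B and HLA-C carried an NF-kB match, TGACG and several CCAAT boxes, and neither window held GAAANNGAAA. In HLA-B, TGACG stood at position -106 from the start and CCAAT boxes at positions -81, -74 and -56. In HLA-C, TGACG stood at position -105 and CCAAT boxes at positions -192, -95, -80 and -56. GAAANNGAAA occurred in B2M at positions -144 and -138, in TAP1 on the opposite strand at positions -134 and -128, in TAP2 at position -58 and in TAPBP at positions -20 and -14. Among 35116 annotated promoter windows of the same length, 3.57% held GAAANNGAAA, 34.6% a CCAAT box, 24.6% TGACG and 11.3% the NF-kB consensus. The HLA-B and HLA-C windows were identical at 269 of 304 aligned positions, which is 88.5%, whereas the other pairs of member promoters were 47.5% to 53.6% identical. The longest run shared by HLA-B and HLA-C was 25 bases. How reads that match several places were treated is not given in the sources used here, so the calls at these genes are uncertain. The promoter table held 6 of the 9 members, without HLA-E, NLRC5 and CIITA.

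Each deposited list held the summit of every peak called in 1 library, with a score of the form of a −log10 p- or q-value. The lists held between 45618 and 117245 summits, with LNCaP-resistance replicate 2 the shortest, and gave no read counts, so the depth is unknown and a shorter list cannot be told apart from a shallower library. Scores were therefore compared as percentiles, which give the percent of summits in the same list that score no higher, and a gene without a summit was given 0. As a check of the label, 4 of 5 luminal prostate genes (KLK2, TMPRSS2, FOLH1 and HOXB13, but not KLK3) had a summit within 500 bp of a gene start or end in all 4 libraries. None of 6 white blood cell genes and 1 of 4 fibroblast genes (COL1A2, in 1 library) had such a summit in any library. Only annotated starts were counted for genes in the promoter table, such as KLK3 and PTPRC, and either gene end for the others.

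Most members were open in every library. HLA-C, HLA-E, B2M, TAP1, TAP2, TAPBP and NLRC5, which is 7 of 9, had a summit within 500 bp of the start in all 4 libraries (of either gene end for HLA-E and NLRC5, whose start was not in the promoter table), against 55.3% of 15843 protein-coding genes with an annotated start. The 9 gene windows held 34 and 29 summits in LNCaP replicates 1 and 2, and 29 and 19 in LNCaP-resistance replicates 1 and 2, so the cell types touched at 29. As a share of the whole list, these were 0.0290% and 0.0270% in LNCaP and 0.0409% and 0.0417% in LNCaP-resistance, so the member windows took a larger share of both resistant lists. The same share for other gene windows is not given, so this rise cannot be called particular to the members.

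Windows reaching 250 bp to each side of every summit were merged over the libraries into regions. The members held 38 of 150917 regions. Of these 38, 16 were shared by all 4 libraries (42.1%, against 21.1% of all regions). Another 6 were LNCaP-only, present in both LNCaP libraries and neither resistant one (15.8%, against 27.5%). Only 1 was resistant-only (2.63%, against 3.84%), and 15 were mixed. The set of all regions lies at any distance from genes, so its shares are not those of regions in or near genes. The LNCaP-only regions lay in CIITA (3), NLRC5 (2) and beyond B2M (1), the resistant-only region lay in HLA-B, and the HLA-C, HLA-E, TAP1, TAP2 and TAPBP windows held neither kind. The bar plot of region classes shows the share of each class beside that of all regions.

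**Figure D1:**
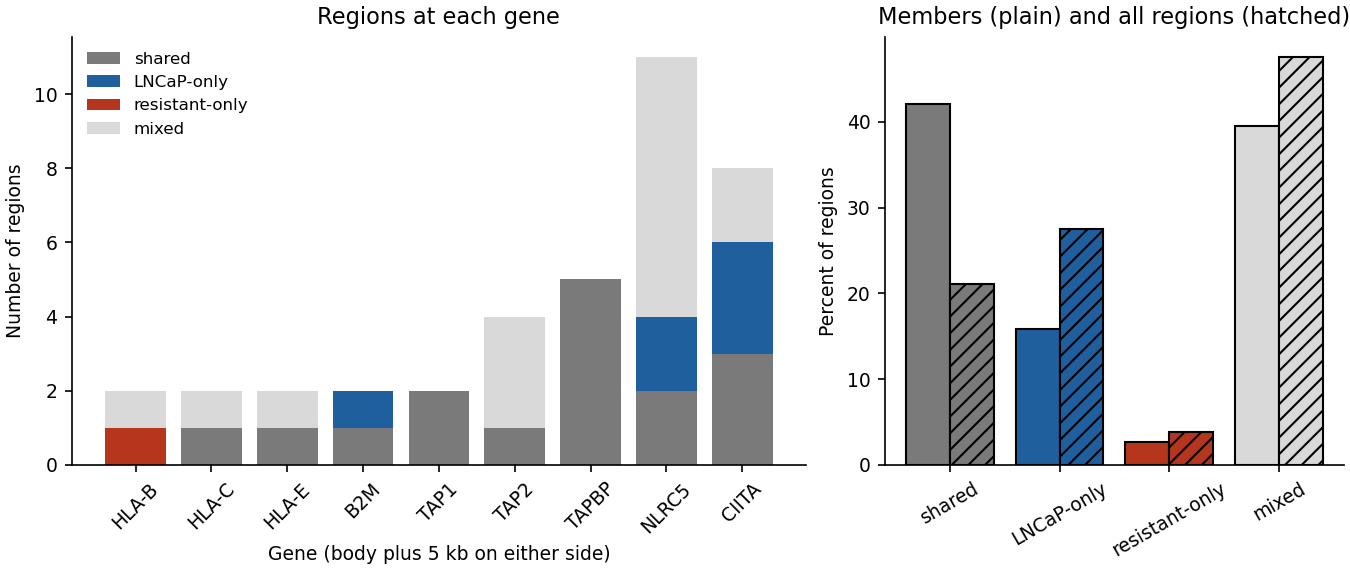
Left, number of merged regions of each class in the window of each gene (body plus 5 kb on either side). Right, percent of regions in each class for the members (plain bars, 38 regions) and for all 150917 regions (hatched bars). CIITA had 3 LNCaP-only regions and TAPBP had 5 regions that were all shared.

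The strongest summit of each gene was lower in both resistant libraries at TAP1, TAP2, NLRC5 and CIITA, higher at HLA-E, and overlapped between the cell types at HLA-B, HLA-C, B2M and TAPBP. Lower calls were thus 4 of 9, against 39.5% of 18203 protein-coding genes with a summit, and higher calls 1 of 9, against 17.8%. The median change over the members was -3.13 percentile points, beside -2.16 over those coding genes. The direction of the members as a set was therefore close to that of all genes. Below, a change is the resistant mean minus the LNCaP mean in percentile points, with the pooled SD of the libraries within a cell type (n = 2 libraries each).

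**Figure D2:**
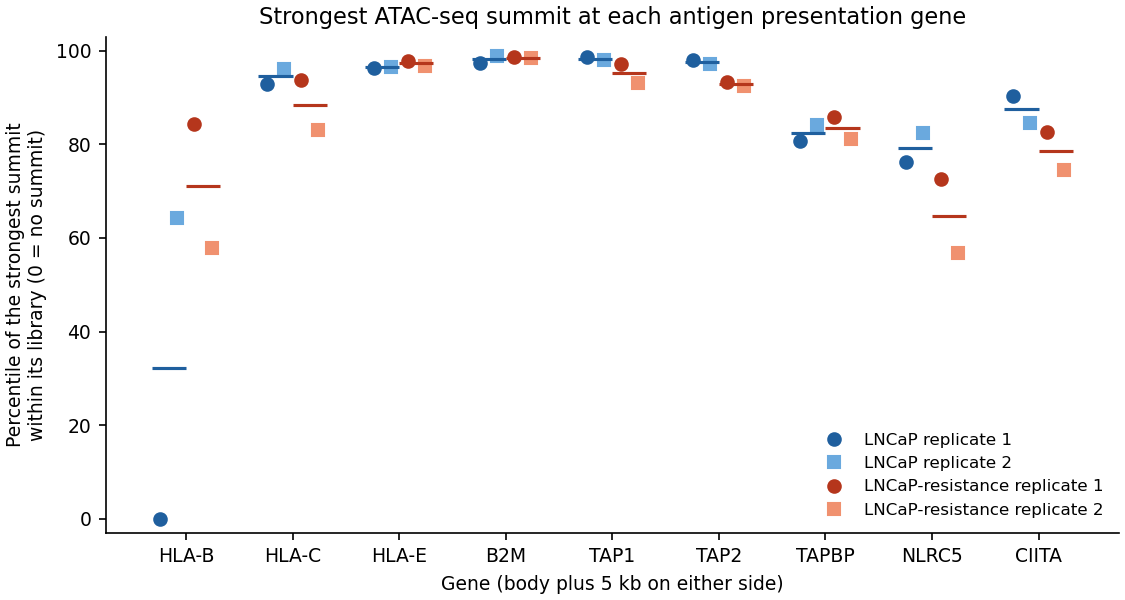
Percentile of the strongest summit of each gene within its library (0 means no summit), with 1 point per library and a bar at the mean of each cell type. B2M, HLA-E, TAP1 and TAP2 sat above 90 in every library, whereas HLA-B had no summit in LNCaP replicate 1 and reached 84.4 in LNCaP-resistance replicate 1.

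Among the heavy chains, HLA-B stood apart. Its start region, chr6:31356956-31357549, had no summit in LNCaP replicate 1 and percentiles of 64.3 in LNCaP replicate 2, 84.4 in LNCaP-resistance replicate 1 and 57.9 in LNCaP-resistance replicate 2. The 2 LNCaP libraries differed more from each other than the cell types did, and the change of 38.95 ± 34.8 (SD) overlapped. Within batch 1 the change was 84.4, and within batch 2 it was -6.45. With 10 kb on either side of the gene, the change turned to -3.70. A second HLA-B region, chr6:31356078-31356642, was resistant-only and lay inside the gene, 819 bp from its start. It had percentiles of 49.3 and 11.2, so 1 of its 2 summits was among the weakest of its list. HLA-C had a region at nearly the same distance inside the gene, 854 bp from its start, with a summit in LNCaP-resistance replicate 1 alone (36.7).

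The start of HLA-C, chr6:31271513-31272422, was open in all libraries, at 93.0 and 96.1 in LNCaP and 93.8 and 83.0 in LNCaP-resistance. These overlapped, with a change of -6.13 ± 5.64, and the batches gave 0.87 and -13.1. HLA-E, at chr6:30489183-30489697 beside its lower-coordinate end, had 96.4 and 96.6 in LNCaP and 97.9 and 96.8 in LNCaP-resistance. It was the only member called higher, by 0.85 ± 0.59 points, and in batch 2 the difference was 0.18. B2M, the light chain, had the highest percentiles of the members in the resistant libraries. Its start region, chr15:44711240-44711747, which also lies within 500 bp of a start of PATL2, had 97.4 and 98.9 in LNCaP and 98.6 and 98.5 in LNCaP-resistance, and the cell types overlapped. The summits of B2M lay 20 to 27 bp from the start in all 4 libraries, inside the printed window between TGACG and the start. Beyond the far end of B2M, chr15:44719603-44720171, 8370 bp from its start, was LNCaP-only at 65.0 and 69.3.

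Of the pump genes, TAP1 shares its start region with a neighbour. TAP1 and PSMB9, an immunoproteasome subunit, start close together, and the region over both, chr6:32853526-32854384, had 94.9 and 94.7 in LNCaP and 95.8 and 93.2 in LNCaP-resistance. These overlapped, with a change of -0.29 ± 1.32. The lower call of TAP1 instead came mainly from a region beyond its other end, chr6:32844456-32845003, 56 bp from the start of the immunoproteasome gene PSMB8. That region had 98.6 and 98.1 in LNCaP and 97.2 and 93.0 in LNCaP-resistance. It held the strongest summit in every library but LNCaP-resistance replicate 2, where the start region (93.2) did. TAP1 itself was thus not separated at its own start in this ranking, but the region over that start was higher in the other rankings set out below. At equal list length it had 86.9 and 87.5 in LNCaP against 93.5 and 93.2 in LNCaP-resistance. Among shared regions alone it had 84.9 and 85.6 against 90.9 and 90.4.

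TAP2 was lower at its own start. The region chr6:32838051-32838869 had 98.0 and 97.1 in LNCaP and 93.4 and 92.6 in LNCaP-resistance, a change of -4.61 ± 0.61, and the batches gave -4.64 and -4.57. Among all 31833 shared regions, 50.1% fell by as much or more, so the size of this difference was close to their median. The summits lay 431, 438 and 430 bp inside the gene in the first 3 libraries and 120 bp inside it in LNCaP-resistance replicate 2. The TAP2 window also took in the start of HLA-DOB, which modulates class II peptide loading, at 50.7 and 64.3 in LNCaP, 36.1 in LNCaP-resistance replicate 1 and no summit in LNCaP-resistance replicate 2.

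The TAPBP window held 5 regions, all shared, and 2 adjacent ones differed in opposite directions. The region over the start of the tapasin gene, chr6:33312601-33314359, was lower, with 61.8 and 39.4 in LNCaP and 36.7 and 10.9 in LNCaP-resistance. In LNCaP these summits lay 1180 and 1227 bp inside the gene, and in LNCaP-resistance 1184 and 270 bp inside it. The lower call of this region thus compared different positions. The change was -26.7 ± 17.1, and 18.6% of all shared regions fell by as much or more. At equal list length, set out below, this region turned to 1.70 and no summit in LNCaP against 1.74 and 10.9 in LNCaP-resistance. Counting just the summits within 500 bp of the start, the percentiles of 38.7, 14.2, 29.4 and 10.9 overlapped. The next region, chr6:33314419-33314943, 604 bp upstream of the start and inside the neighbouring gene ZBTB22, was higher. It had 64.0 and 44.2 in LNCaP and 85.8 and 77.9 in LNCaP-resistance, a change of 27.8 ± 10.6, and 4.69% of all shared regions rose by as much or more. At the far end of TAPBP, inside RGL2, chr6:33299192-33300065 was also higher, with 80.8 and 75.9 in LNCaP and 82.5 and 81.2 in LNCaP-resistance. Its summits lay at 121 and 109 bp from the lower-coordinate end in LNCaP and at -247 and -252 bp, outside TAPBP, in LNCaP-resistance. Different positions were thus compared in this region too. TAPBP's strongest summit lay in this region in LNCaP replicate 1 and LNCaP-resistance replicate 2. It lay near the start of ZBTB22 in LNCaP replicate 2 (84.1) and in the region inside ZBTB22 in LNCaP-resistance replicate 1. The call of TAPBP by its strongest summit thus compared different regions.

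NLRC5, the class I transactivator, had 11 regions, of which 7 were mixed. The region at its lower-coordinate end, chr16:56989267-56989803, was lower in resistance, with 76.2 and 82.5 in LNCaP and 72.6 and 56.9 in LNCaP-resistance. The change was -14.6 ± 8.46, and 32.9% of all shared regions fell by as much or more. At -4724 bp from that end, chr16:56984575-56985121 was higher, with 23.7 and 34.4 in LNCaP and 72.2 and 45.8 in LNCaP-resistance. This change of 29.9 ± 14.2 was matched or passed by 4.05% of all shared regions. Inside the gene, chr16:57045684-57046265 had no summit in LNCaP replicate 1, a weak one in LNCaP replicate 2 (7.85) and percentiles of 53.4 and 44.1 in LNCaP-resistance. The 2 LNCaP-only regions of NLRC5 were weak, at 29.9 and 22.3 for chr16:56994264-56994772 and at 4.70 and 15.3 for chr16:57071938-57072489. The windows around NLRC5 therefore held differences in both directions.

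CIITA, the class II transactivator, had LNCaP-only regions inside the gene. The regions chr16:10871663-10872186 (56.1 and 52.5 in LNCaP), chr16:10882994-10883496 (90.3 and 78.4) and chr16:10895268-10895776 (50.7 and 27.3) had no summit in either resistant library. The one at 17039 bp from the lower-coordinate end was among the strong LNCaP regions, those found in each LNCaP library with a mean percentile of at least 79.9. Of all such regions 21.6% were LNCaP-only, and of the 9 in the member windows 1 was. The regions at 5718 and 29316 bp had mean LNCaP percentiles of 54.3 and 39.0, and at equal list length neither had a summit in any library. Of regions found in each LNCaP library with a mean percentile of 38.8 to 59.7, 58.1% were LNCaP-only, and of the 6 in the member windows 2 were. At 52727 bp, chr16:10918682-10919190 was kept but lower, with 88.6 and 75.8 in LNCaP and 51.4 and 33.9 in LNCaP-resistance. This change of -39.5 ± 10.8 was the largest among the shared regions of the members, and 8.84% of all shared regions fell by as much or more.

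Other summits of the CIITA window belonged to neighbouring starts. At 59 bp from the start of DEXI, within the higher-coordinate end of CIITA, chr16:10942262-10942804 was higher in resistance, with 48.2 and 48.6 in LNCaP and 62.7 and 59.2 in LNCaP-resistance, a change of 12.6 ± 1.78. These summits lay 487 and 467 bp from the CIITA end in LNCaP and 509 and 501 bp in LNCaP-resistance, so the count within 500 bp left out the resistant pair by the limit alone. At 53 bp from the start of CLEC16A, outside CIITA, chr16:10944256-10944770 was lower, with 86.7 and 84.6 in LNCaP and 82.6 and 74.6 in LNCaP-resistance. CIITA's strongest summit, lower at 90.3 and 84.6 against 82.6 and 74.6, was this CLEC16A summit in every library but LNCaP replicate 1. No library had a summit within 500 bp of the lower-coordinate end of CIITA. The maps of summits by distance show the internal LNCaP summits of CIITA beside the cluster at its far end.

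**Figure D3:**
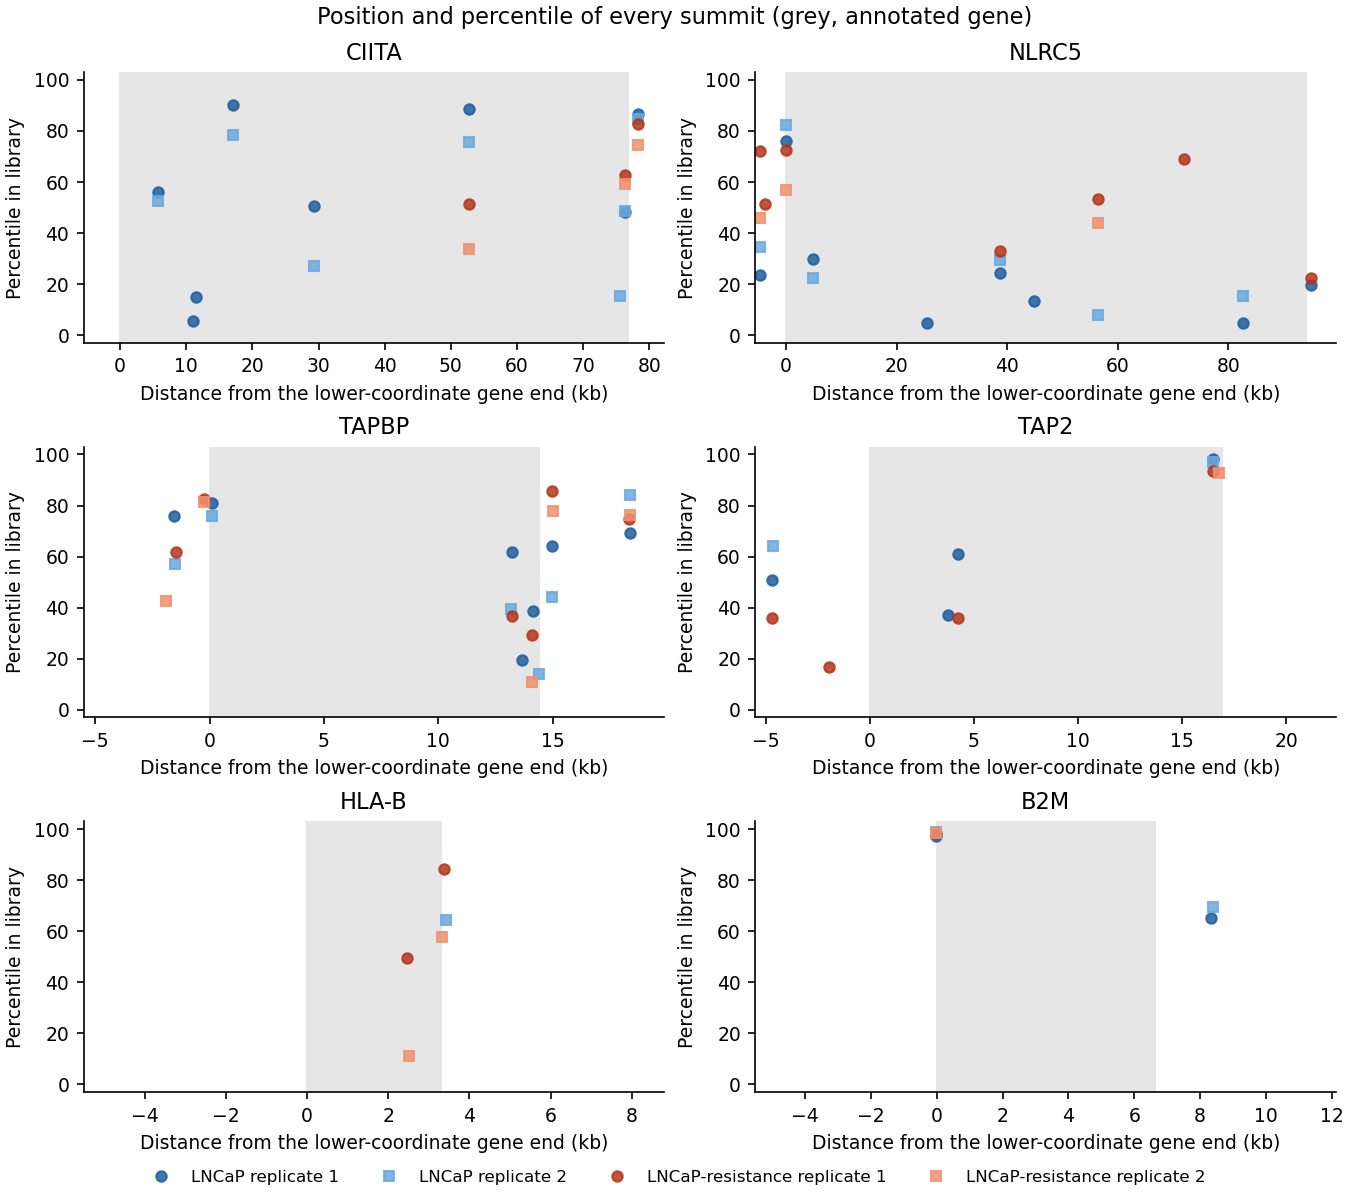
Position of every summit, in kb from the lower-coordinate end of the gene, against its percentile within its library, for CIITA, NLRC5, TAPBP, TAP2, HLA-B and B2M. Grey marks the annotated gene, and points are coloured by library. Inside CIITA, the points between the gene's lower end and 52727 bp belong to LNCaP libraries alone, and at 52727 bp the LNCaP points (88.6 and 75.8) lie above the resistant ones (51.4 and 33.9).

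Over the 16 shared member regions, 6 were lower and 5 higher, against 41.8% lower and 17.7% higher of all 31833 shared regions. Their median change was -2.19, beside -4.65 over all shared regions. How percentiles were set moved several calls. Where each list was limited to its 45618 highest-scoring summits, the median over protein-coding genes moved to 6.74, with 17.6% lower and 50.4% higher, and at the members 1 was lower (TAP2) and 4 were higher (HLA-B, HLA-E, B2M and TAPBP). Where summits were ranked among the shared regions alone, TAP1 and TAP2 were lower and HLA-E, B2M and TAPBP higher, of 8 members. TAP2 was thus lower and HLA-E higher under all 3 rankings, whereas NLRC5 and CIITA turned to 8.39 and 4.26 with lists of equal length. Among shared regions, the lower TAP1 call rested on the region near PSMB8 in all libraries but LNCaP-resistance replicate 2. The region over the start of TAP1 was higher there, as given above. The TAPBP calls rested in every ranking on the neighbouring regions named above, not on the start of TAPBP. The lower percentile at 52727 bp in CIITA kept its direction in all 3 rankings, with 70.7 and 43.0 in LNCaP against 24.4 and 33.9 in LNCaP-resistance at equal list length. The higher percentile 604 bp upstream of TAPBP also did, with 7.39 and no summit against 77.9 and 77.9. The regions over the start of TAPBP and at CLEC16A, both called lower, did not, and the latter had 65.8 and 63.8 in LNCaP against 72.9 and 74.6 in LNCaP-resistance at equal list length.

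The other genes of the pathway were described from 5 lists with 45 genes, of which 19 were lower, 6 higher and 20 overlapping. Of coding genes with a summit, 39.5% were lower and 17.8% higher, so the counts over the 45 genes were close to these shares. Class II genes were lower most often, with 9 of 11 lower and none higher, against 39.5% and 17.8% of coding genes. The median change of the 10 class II genes with a summit was -30.9. HLA-DOB, as given above, changed by -39.5 ± 19.3. HLA-DOA, which pairs with it, had 44.6 and 33.1 in LNCaP and no summit in either resistant library. HLA-DPA1 and HLA-DPB1, 2 chains of one class II molecule, were picked out after their values were seen and shared a single strongest summit, at 82.6 and 80.0 in LNCaP and 69.3 and 31.5 in LNCaP-resistance, so these genes are not separate observations. With lists of equal length, 4 of 11 class II genes were lower and none higher, against 17.6% lower and 50.4% higher of coding genes. Class II genes are used mostly by white blood cells. Of the 6 white blood cell genes PTPRC, CD3E, MS4A1, CD14, SPI1 and LYZ, 5 and 5 had a summit in their windows in LNCaP and 4 and 3 in LNCaP-resistance. Their summed percentiles were 311 and 304 in LNCaP and 239 and 180 in LNCaP-resistance, lower in both resistant libraries as the class II genes were. The 5 luminal prostate genes were also lower in sum, at 409 and 422 in LNCaP and 375 and 294 in LNCaP-resistance, and the part of either list in the class II result was not tested. As given above, none of the white blood cell genes had a summit within 500 bp of the start or end counted for it in any library. CD14 had none in its whole window.

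Of 8 further genes of class I loading, 3 were lower, none higher and 5 overlapped, against 39.5% lower and 17.8% higher of coding genes. The median change was -1.70 over the 7 with a summit, beside -2.16 over coding genes. HLA-F, a non-classical class I heavy chain, was lower, with 96.5 and 88.3 in LNCaP and 52.2 and 42.0 in LNCaP-resistance. ERAP2, which trims peptides in the endoplasmic reticulum, had 95.2 and 88.8 in LNCaP and 65.7 and 47.9 in LNCaP-resistance. The changes were -45.3 ± 6.53 at HLA-F and -35.2 ± 9.43 at ERAP2, larger in size than that of any member called lower by its strongest summit. Of 5 immunoproteasome genes, 1 was lower (PSMB8, at the summit given with TAP1) and 1 was higher (PSME1, an activator subunit, by 4.15 ± 3.12). The same shares of coding genes stand beside these counts. PSME1 had 91.87 and 86.20 in LNCaP and 91.90 and 94.48 in LNCaP-resistance, so its higher call rested on a very narrow gap.

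Interferon signalling genes were lower in 6 and higher in 3 of 13, close to the 39.5% and 17.8% of coding genes. IFNAR2, a chain of the type I interferon receptor, had 93.5 and 94.2 in LNCaP and 78.9 and 78.7 in LNCaP-resistance. IRF2, a factor that competes with IRF1, had 89.5 and 89.3 in LNCaP and 79.5 and 79.9 in LNCaP-resistance. IFNGR1, the ligand-binding chain of the interferon-gamma receptor, was higher, with 88.2 and 89.2 in LNCaP and 94.6 and 94.5 in LNCaP-resistance. IRF9, part of the complex that type I interferon activates, was higher by 11.7 ± 7.38. None of the 8 enhanceosome genes, whose proteins bind upstream of class I and class II genes, was lower and 2 were higher, against those same shares. However, within batches 1 was lower, and with a library left out 1 to 4 were, the most without LNCaP replicate 1. NFYC, a subunit of the factor that binds CCAAT boxes, had 77.3 and 76.1 in LNCaP and 94.6 and 96.8 in LNCaP-resistance. RFXANK, a subunit of the RFX complex, was higher by 9.93 ± 5.75. Of the 45 list genes, those closest to HLA-B over the 4 percentiles were IRF9, SOCS1 and RFXAP, at Euclidean distances of 64.5, 71.3 and 81.3 points, none with a missing summit as in HLA-B.

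**Figure D4:**
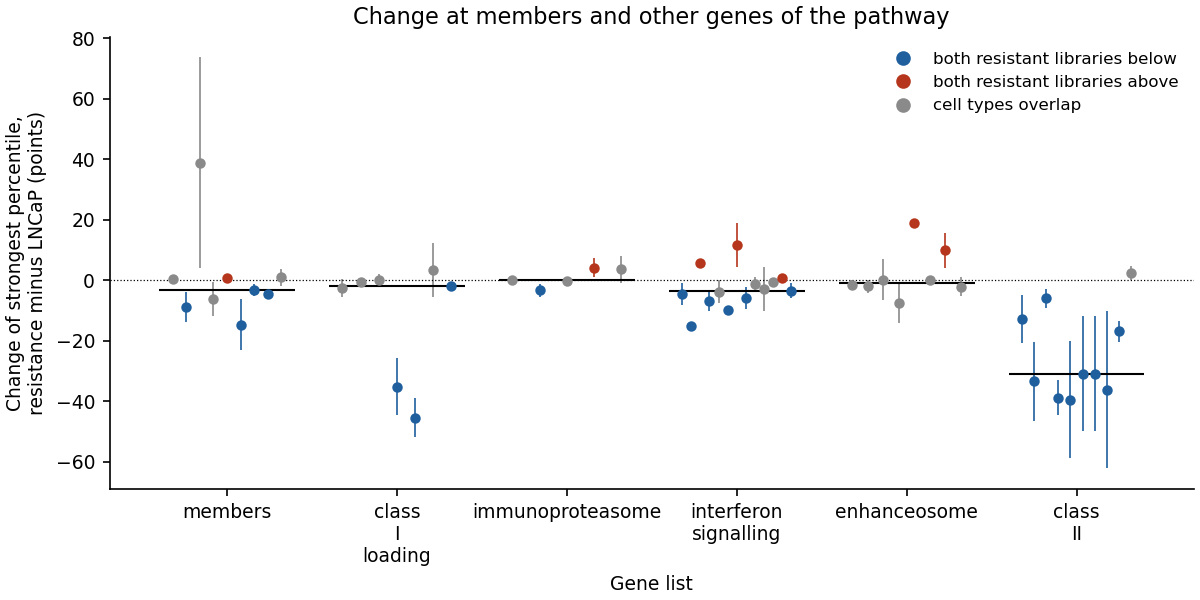
Change of the strongest percentile, resistance minus LNCaP, for each gene with a summit in the member list and the 5 pathway lists. Bars show the pooled SD (n = 2 libraries per cell type), horizontal lines the list medians, and colours whether the cell types overlapped. The class II list has a median of -30.9, beside -3.13 for the members.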

How the data were processed

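ATAC-seq was performed in 2 libraries each of LNCaP and LNCaP-resistance cells. The authors called peaks per library and deposited 1 list of summits per library, with a score of the −log10 form, whether of p- or q-values not given in the sources used here. The lowest score of each list was just above 1.30, the −log10 of 0.05. The submitters' processing notes name Bowtie2 2.2.5, SAMtools 1.6, MACS2 2.2.6, deepTools 3.5.2, HOMER 4.11, edgeR 3.22.5 and the build hg38. No summit lay on an alternative contig. Depth, and the precision it gives, is unknown.

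Summit positions are 1-based. RefSeq on GRCh38.p14 gave gene ends and, through its promoter table, strands and starts. Windows, regions, percentiles and calls are defined in the text. The members and lists were chosen with earlier results of these data known, and some planned marker genes are not reported here. The named genes were all members, the 2 largest falls and rises without overlap per list, and the 3 genes closest to the most changed member, with HLA-DPA1, HLA-DPB1 and marker genes named beside them. The labels give batches repeat1 and repeat2, which pair the libraries across cell types, although deviations of same-numbered libraries correlated at -0.01 over 31833 shared regions. Alternatives were a score of at least 10, equal list lengths, other windows and distances, leaving out each library and a replicate block. Ranking among shared regions, and all alternatives for the pathway lists, were chosen after seeing the data. Simulated lists with planted regions were used to test the code. Python 3.11.15, numpy 2.4.6, pandas 2.3.3, Biopython 1.88 and matplotlib 3.10.9 were used.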

Additional observations from a re-analysis of the deposited data

How the results depend on the processing

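The lists hold no depth, and 2 libraries per cell type allow no exact p under 0.333. Member summits differed by -7.5 (resistance minus LNCaP means), by -0.5 with scores of at least 10 and by 5 with equal list lengths, and the percentile changes of NLRC5 and CIITA also turned there, to 8.39 and 4.26. Regions were 6 LNCaP-only, 1 resistant-only and 16 shared. They were 3, 0 and 10 with scores of at least 10. LNCaP-only and resistant-only regions were 2 and 4 with equal list lengths, and 10 and 5 where at least 1 library sufficed. Resistant-only regions were 2 with windows of 100 bp and 0 with 500 bp. Members lower and higher were 4 and 1. Lower members were 2 with scores of at least 10 and 1 with equal list lengths, where 4 were higher. Coding genes with equal list lengths were 17.6% lower and 50.4% higher. With percentiles among shared regions 2 were lower and 3 higher, and with 2 kb around genes 2 were higher. Starts with a summit in every library were 7, but 4 within 250 bp.

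Of pathway genes, 3 interferon signalling genes were lower with scores of at least 10. With equal list lengths, 3 class I loading genes were higher, 0 immunoproteasome genes lower and 4 higher, 2 interferon signalling genes lower and 5 higher, 4 enhanceosome genes higher and 4 class II genes lower. Of coding genes at that setting, 17.6% were lower and 50.4% higher, so a count of higher genes there is not particular to the pathway. With 10 kb around genes, 2 immunoproteasome genes were lower and 0 higher.

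Leaving out each library in turn gave summit differences of -12.5 (without LNCaP-resistance replicate 1) to -2.5 (without LNCaP-resistance replicate 2), 6 to 9 LNCaP-only regions, 16 to 18 shared regions, 4 to 6 lower members and 7 to 8 starts with a summit in every library. Resistant-only regions ranged from 1 to 5, with 3 without LNCaP replicate 2 and 5 without LNCaP-resistance replicate 2, and higher members from 1 to 4, with 4 and 3 without those libraries. Lower and higher genes ranged from 3 to 5 and 0 to 1 for class I loading, 1 to 3 and 1 to 3 for the immunoproteasome, 7 to 8 and 3 to 4 for interferon signalling, 1 to 4 and 2 to 4 for the enhanceosome, and stood at 9 and ranged from 0 to 1 for class II

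Paired by batch (replicate block), 1 enhanceosome gene was lower instead of 0, members lower and higher stayed at 4 and 1, and no other count of the members or lists moved by over 1.5 times. The cause of these differences was not tested.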
